A study of Homo sapiens with 30 samples.

Results

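The ERG peaks in closed chromatin were 6951 of the 9113 peaks that the deposited ERG ChIP-seq list holds for RWPE1-ERG+mAKT cells. They were chosen by a rule on 2 other assays in the same parental line: a peak lay on chromosomes 1 to 22 or X, overlapped no peak of 3 ATAC-seq lists, and had no peak of the RWPE1-ERG list for the kinase ERK2 within 1 kb. The ATAC-seq lists came from cells with ERG (RWPE1-ERG), with active AKT (RWPE1+mAKT) or with both (RWPE1-ERG+mAKT). Of the other peaks on these chromosomes, 1673 overlapped an ATAC-seq peak and had no ERK2 peak within 1 kb (open ERG peaks), and 480 had an ERK2 peak within 1 kb. Closed chromatin here means only that no ATAC-seq peak was called at the site in these 3 lists.

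RWPE1 is an established line of normal prostate epithelium, and each derivative carried retroviruses under drug selection. The RWPE1-Vector cells of the H3K27me3 and ERK2 ChIP carried empty pQCXIH, the RWPE1-ERG cells carried ERG isoform 1 in pQCXIH, and the RWPE1-ERG S96E cells carried the same isoform with serine 96 changed to glutamate. In ATAC-seq and RNA-seq, RWPE1+mAKT cells carried empty pQCXIH with myristoylated AKT in pBabe-Puro, and RWPE1-ERG cells carried empty pBabe-Puro beside ERG, as did RWPE1-Vector cells in RNA-seq beside pQCXIH. The line of the ERG peaks carried ERG in pQCXIH and myristoylated AKT in pBabe-Puro. Every ChIP-seq and ATAC-seq list stands for 1 library, and the RNA-seq values are pooled over 3 libraries of each line. VCaP, a prostate cancer line with its own ERG expression, gave 1 further ERG list from vehicle-treated (DMSO) cells.

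ERG is an ETS transcription factor of endothelial and blood cells, and gene fusions turn it on in many prostate cancers. ETS factors bind a short core around the bases GGAA, often beside sites of AP-1 or of forkhead (FOX) factors. Most binding of transcription factors in a cell falls in open chromatin, where ATAC-seq detects it. H3K27me3 is the mark that EZH2, the enzyme of Polycomb repressive complex 2, places on silent developmental genes.

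The header of the ERG list records 10306483 ChIP reads and 14670664 input reads. The H3K27me3 lists rest on 16513053 to 26454542 ChIP reads and hold 492265 regions for RWPE1-Vector, 228233 for RWPE1-ERG and 252784 for RWPE1-ERG S96E cells, so shares of peaks that overlap them were compared between classes of peaks within a line and not between lines. In the RNA-seq table ERG had an FPKM of 0.264 in RWPE1-Vector and 0.435 in RWPE1+mAKT cells, against 358 in RWPE1-ERG cells and 328 in the line of the ERG peaks. AKT1 had 58.7 in RWPE1-Vector, 64.2 in RWPE1-ERG, 156 in RWPE1+mAKT cells and 281 in the line of the ERG peaks. The epithelial markers CDH1, EPCAM, KRT8 and KRT5 were at 33.7 to 3642 in all 4 lines, and the endothelial markers PECAM1, CDH5, VWF and KDR were at or below 0.210.

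The first sequences shown are 4 of the 6 closed-chromatin peaks of highest fold enrichment, chosen to show the short tandem repeats there. Each is the hg19 reference on its plus strand, 81 bases centred on the peak summit, and none of them holds an ETS core.
MED12L/P2RY12 intron, chr3:151086447-151086527: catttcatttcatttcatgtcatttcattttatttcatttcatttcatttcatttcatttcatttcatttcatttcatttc
SEMA5A intron, chr5:9384672-9384752: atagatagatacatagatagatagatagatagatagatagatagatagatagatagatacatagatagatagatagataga
between genes toward APP, chr21:27661280-27661360: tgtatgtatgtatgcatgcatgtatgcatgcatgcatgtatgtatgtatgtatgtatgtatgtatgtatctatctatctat
SRPK1 intron, chr6:35849823-35849903: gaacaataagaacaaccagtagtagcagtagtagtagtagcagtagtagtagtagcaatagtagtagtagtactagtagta

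The next set shows the pair of peaks of lowest p-value outside tandem repeats and 1 coding exon peak each of ERG and ETS1, as the summit with 50 bases on each side, hg19 plus strand. No ETS core lies in these windows, so there are no capitals. The COL26A1 window has an irregular 4-base repeat, and 77.2% of its 61 central bases match the base 1 unit earlier, just under the 80% set for a tandem repeat.
COL26A1 intron, chr7:101190996-101191096: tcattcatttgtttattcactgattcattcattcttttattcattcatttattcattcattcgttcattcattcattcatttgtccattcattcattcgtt
beside HBA2, chr16:224008-224108: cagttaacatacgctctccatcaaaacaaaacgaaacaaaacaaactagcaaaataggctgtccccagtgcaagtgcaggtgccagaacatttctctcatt
ERG coding exon, chr21:39817367-39817467: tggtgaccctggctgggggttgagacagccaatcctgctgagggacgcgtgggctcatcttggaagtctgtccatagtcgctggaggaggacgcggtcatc
ETS1 coding exon, chr11:128350112-128350212: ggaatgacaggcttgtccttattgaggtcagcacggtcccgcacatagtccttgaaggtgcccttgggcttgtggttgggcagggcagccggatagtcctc

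The last set shows closed-chromatin peaks that do hold an ETS sequence, again with 50 bases of hg19 on each side of the summit, plus strand. In the first 3, capitals mark the 8-base ETS/AP-1 word, AGGAAGTG or CGGAAGTG on either strand. In the last, which was also an ERG peak in VCaP cells, capitals mark the 6-base ETS core on either strand, which is AGGAAA or the same with C first (CGGAAA) or with G last (AGGAAG), or with both changes (CGGAAG).
ITGB1 exon, chr10:33274790-33274890: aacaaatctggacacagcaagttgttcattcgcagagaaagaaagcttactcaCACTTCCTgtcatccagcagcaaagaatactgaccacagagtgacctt
between genes toward TGFBI, chr5:135347851-135347951: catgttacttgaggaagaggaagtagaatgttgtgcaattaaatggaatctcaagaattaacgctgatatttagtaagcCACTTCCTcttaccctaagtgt
beside TNFRSF8, chr1:12204378-12204478: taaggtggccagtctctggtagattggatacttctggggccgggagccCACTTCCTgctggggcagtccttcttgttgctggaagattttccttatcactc
between genes toward APIP, chr11:34831265-34831365: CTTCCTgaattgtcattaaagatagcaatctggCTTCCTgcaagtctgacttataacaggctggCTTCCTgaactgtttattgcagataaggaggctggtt

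Most closed-chromatin ERG peaks were weak. The median peak was 109 bp wide, the least width in the list, with 4 reads at its summit and a fold enrichment over input of 3.53. At 15.7% of them 3 reads lay at the summit, at 42.8% 4 reads and at 27.6% 5 reads, and the most was 94. In the open class the median peak had 5 reads, 135 bp and a fold of 4.11. The limit of 0.01 on the q-value was met by 157 closed-chromatin peaks, 2.26% (95% Wilson interval 1.93 to 2.64%), against 204 open peaks, 12.2% (10.7 to 13.8%), and 18.1% (14.9 to 21.8%) of those near ERK2. The odds of such a q-value were 0.166 times as high in closed as in open chromatin (two-sided Fisher's exact test, adjusted p = 8.77e-57). Peaks are not replicates of a condition, and this and the later tests compare classes of peaks within 1 list. All p-values are adjusted by Benjamini-Hochberg over 27 tests, 17 against open peaks and 10 against flanking windows, and intervals cover counting error only.

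**Figure D1:**
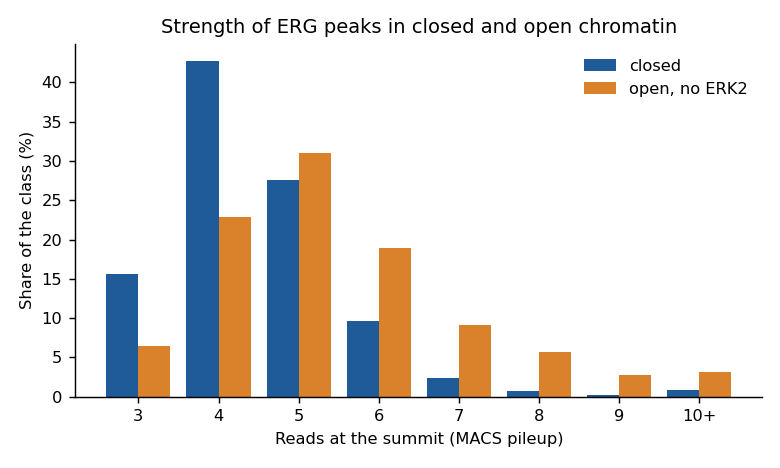
Share of closed-chromatin (6951) and open (1673) ERG peaks, in percent of each class, by the number of reads at the summit (MACS pileup, 10+ for 10 or more). The closed-chromatin bars are tallest at 4 reads (42.8%) and the open bars at 5 (31.0%).

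The strongest closed-chromatin peaks stood on tandem repeats. A tandem repeat was called where at least 80% of the 61 bases at the peak centre matched the base 1 unit earlier, for a unit of up to 6 bases. This held for 78 members, 1.12% (0.900 to 1.40%), for 0 of 1673 open peaks (upper limit 0.229%) and 0 of 480 peaks near ERK2 (upper limit 0.794%), and the difference between closed and open passed the test (Fisher's exact test, adjusted p = 1.31e-07). Of all 61-base tiles of the genome, 0.144% met the same rule. By fold enrichment 9 of the first 10 members were tandem repeats, and by p-value 18 of the first 20 (90%). The median fold enrichment of the 78 was 7.05, and 58 of them met the q-value limit, with a median of 9.13.

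The repeat in the intron shared by MED12L, a Mediator subunit gene, and P2RY12, an ADP receptor gene, had 94 reads and a fold enrichment of 55.8 (chr3:151086383-151086587). A repeat 8.52 kb from CARD10, a scaffold gene of NF-kappaB signalling, followed with 58 reads and a fold of 41.7. COL26A1, a collagen gene, came next at 37.004, just outside the repeat rule. The intron of SEMA5A, a semaphorin gene, had a fold of 28.9, the site 118 kb from APP, the amyloid precursor gene, 27.02, and the intron of SRPK1, a splicing factor kinase gene, 21.9. Those in or nearest to CSMD1, GK5, MKLN1 and LOC340017 had folds of 18.2 to 19.4. None of these 10 overlapped a VCaP ERG peak. Only the COL26A1 peak overlapped an H3K27me3 region, 458 bp wide and called in RWPE1-Vector cells alone.

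The repeats were mostly of 4-base units (64 of 78, 82.1%). The unit AGAT, counted over its rotations and both strands, made up 31 members (39.7%) and ACAT 23 (29.5%). Of the genome's 66853 tandem repeat tiles, 4.35% had the unit AGAT and 0.670% ACAT, while the most frequent units were AC (19.6%), AAAG (16.1%), AT (14.3%) and AAGG (10.3%). The last of these is the GGAA repeat read from another base, and 0 of the 78 members had it as their unit. Uninterrupted runs of 4 GGAA lay within 100 bp of the summit at 2 closed-chromatin peaks (0.0288%) and 3 open peaks (0.179%, Fisher's exact test, adjusted p = 0.0655). They lay in 0.108% of flanking windows and 0.0949% of genome tiles. ETS cores lay at 16.7% (10.0 to 26.5%) of the tandem repeat members, against 44.2% of their own flanking windows.

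Outside tandem repeats, the strongest members lay in several kinds of place. A site 283 bp from HBA2, a gene of the alpha-globin cluster, had 17 reads and a fold of 12.7 (chr16:223992-224125). Sites 211 kb from DRD1 and in the stretch that chromosome X shares with Y had folds of 9.99 and 9.18, with 78.6% and 78.9% on the repeat measure. An intron of TANGO6 had a fold of 7.54, a site nearest to MIR8056 7.30 and an intron of SH3RF3 6.85. The remaining 3 of the first 10 lay on coding exons of ERG (folds 10.6 and 7.64) and ETS1 (7.06).

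Coding exons of ERG and ETS1, a second ETS factor gene, carried 7 members in all. Of all closed-chromatin peaks 148 (2.13%) overlapped a coding exon, spread over 149 genes because of overlapping genes, and ETS1, with 4, and ERG, with 3, were the only genes with more than 1. The first ERG member covered 90.8% of a 218 bp coding part of an exon (14 reads), the next 85.8% of one of 204 bp (12 reads) and the last all of one of 72 bp (5 reads). The ETS1 members had 6 to 10 reads and covered 54.2 to 90.6% of coding parts of at most 261 bp. A further ERG peak on an ERG coding exon, with 20 reads and a fold of 14.0, overlapped ATAC-seq peaks and was no member. ATAC-seq peaks lay on ERG coding exons in RWPE1-ERG (1 peak, fold 13.1) and RWPE1-ERG+mAKT cells (1 peak, fold 7.21) and in RWPE1+mAKT cells there was 0. No list of ERK2 or VCaP ERG peaks, and no ATAC-seq list for ETS1, had a peak on these exons. H3K27me3 regions on ERG coding exons numbered 4 in RWPE1-Vector, 1 in RWPE1-ERG and 6 in S96E cells, and on those of ETS1 0, 1 and 1. On coding exons of AKT1, with an FPKM of 281 in RWPE1-ERG+mAKT cells, each of the ERG, ERK2, ATAC-seq and H3K27me3 lists had 0. The FPKM of ERG was 328 in RWPE1-ERG+mAKT cells and that of ETS1 13.5, beside 21.0 in RWPE1-Vector, 25.0 in RWPE1-ERG and 20.7 in RWPE1+mAKT cells. ERG was introduced into these cells by retrovirus, and what part reads from the introduced gene had in the peaks on its exons was not tested.

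ETS cores were only slightly more frequent at closed-chromatin peaks than beside them. A core lay within 100 bp of the summit at 43.2% of the 6951 members, in 39.4% of equal windows placed 1 kb upstream and downstream (odds ratio 1.17, Fisher's exact test, adjusted p = 2.71e-07) and in 39.6% of all genome tiles of this width. Of the open peaks 79.6% held one, and the odds in closed chromatin were 0.195 times those (Fisher's exact test, adjusted p = 1.68e-164). All tests against flanking windows counted the windows of both sides together and did not use their pairing with members. The median GC content was 39.3% in closed-chromatin windows and 48.8% in open windows, beside 41.3% and 46.3% in their flanking windows and 39.8% in genome tiles.

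From 3 to 7 reads the share with a core was higher at each further read. It was 40.8% (37.9 to 43.8%) at members with 3 reads, 42.5% (40.7 to 44.2%) with 4, 44.4% (42.2 to 46.6%) with 5, 46.1% (42.4 to 49.9%) with 6 and 51.2% (43.7 to 58.6%) with 7. The 129 members with 8 or more reads broke this order, with a core at 35.7% (27.9 to 44.2%) against 45.3% of their flanking windows, and 58 of them were tandem repeats. In the other 71 it was 54.9% (43.4 to 66.0%), with 44.4% in their flanking windows. Tandem repeats were kept in the classes of 3 to 7 reads, which held 0 to 9 each, and flanking windows there stood at 38.4 to 39.7%. Open peaks of the same strength held a core more often, from 72.5% at 3 reads to 92.3% (87.6 to 95.3%) at 8 or more, and the intervals of the classes did not overlap at any number of reads.

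**Figure D2:**
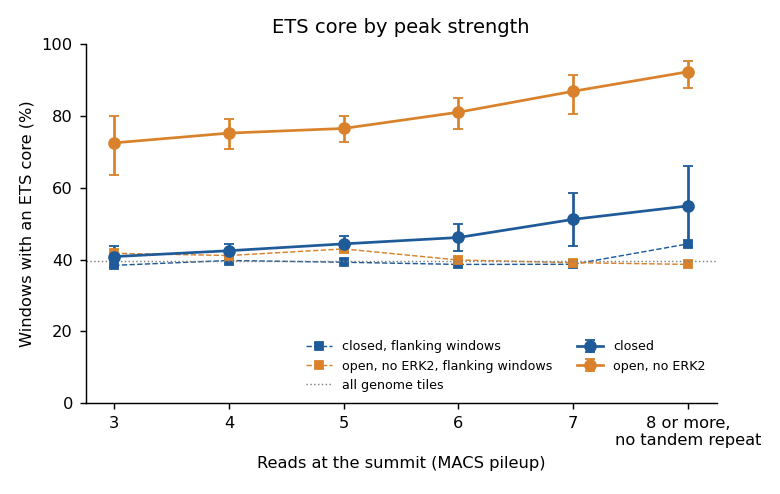
Windows of 100 bases on each side of the summit with an ETS core, in percent, by reads at the summit, for closed-chromatin and open ERG peaks (points, with 95% Wilson intervals) and for windows 1 kb away (squares, dashed), with all genome tiles as a dotted line at 39.6%. Closed-chromatin peaks go from 40.8% at 3 reads to 51.2% at 7, their last point (54.9%) leaves out tandem repeats and would be 35.7% with them, and open peaks go from 72.5% to 92.3%.

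The cores were spread around the summit of closed-chromatin peaks. Within 40 bp of it there were 6.50 cores for every 100 peaks and 20 bp, against 5.72 at 200 to 300 bp, a ratio of 1.13. At open peaks these were 16.9 and 7.50, a ratio of 2.25.

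**Figure D3:**
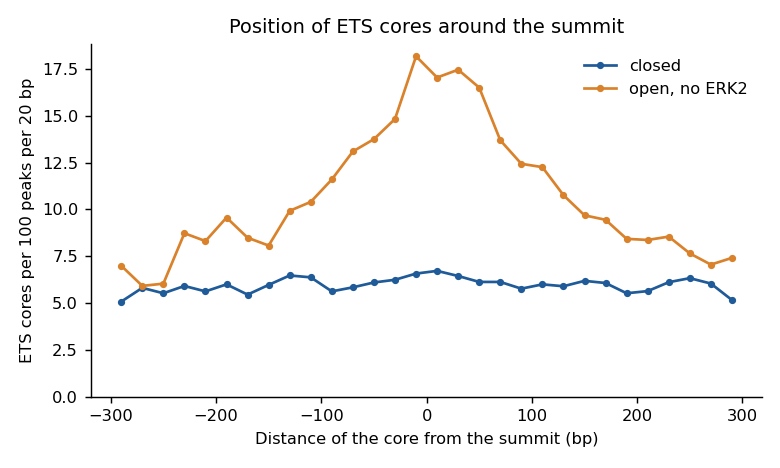
ETS cores for every 100 peaks and 20 bp against their distance from the summit in bp, for closed-chromatin and open ERG peaks. The open line climbs toward the summit (16.9 within 40 bp, 7.50 at 200 to 300 bp) and the closed-chromatin line is nearly flat (6.50 and 5.72).

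The longer words with an ETS core and the AP-1 site were likewise a little more frequent than beside the peaks and several times rarer than at open peaks. By Fisher's exact test, the ETS/AP-1 word was present at 1.83% of closed-chromatin peaks, 1.27% of flanking windows (adjusted p = 0.00246), 10.1% of open peaks (adjusted p = 8.59e-48) and 1.29% of genome tiles. The AP-1 site TGACTCA or TGAGTCA was present at 4.16%, 3.25% (Fisher's exact test, adjusted p = 0.00156), 23.5% (adjusted p = 1.47e-118) and 3.07%. CAGGAAAT, an ETS word, had the largest ratio to flanking windows of these, at 2.68% against 1.58% (1.69 times, Fisher's exact test, adjusted p = 2.89e-07), beside 13.1% at open peaks (adjusted p = 1.17e-56) and 1.47% of tiles. These words overlap: each of AGGAAGTG, CGGAAGTG and CAGGAAAT contains the ETS core.

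The joint FOX and ETS word AACAGGAA was at 2.17% of members, 1.32% of flanking windows (Fisher's exact test, adjusted p = 1.37e-05), 8.73% of open peaks (adjusted p = 1.34e-31) and 1.42% of tiles. The FOX site TGTTTAC or TGTTTGC was at 7.38%, with 6.23% of flanking windows (Fisher's exact test, adjusted p = 0.00246), and the difference from open peaks, 8.31%, missed the threshold (adjusted p = 0.206). The RUNX site TGTGGTT was at 4.45%, 3.55% of flanking windows (Fisher's exact test, adjusted p = 0.00266) and 5.92% of open peaks (adjusted p = 0.0159). A doublet of GGAA was at 2.09%, 1.78% of flanking windows (Fisher's exact test, adjusted p = 0.147) and 7.59% of open peaks (adjusted p = 7.22e-25), and the SMAD palindrome GTCTAGAC at 0.115%, 0.0791% (adjusted p = 0.467) and 0.299% (adjusted p = 0.161). Among the 2000 ERG peaks of lowest p-value, the differences of members from flanking windows missed the threshold for the ETS/AP-1 word, the AP-1 site, the FOX and ETS word and RUNX, and the FOX difference turned (-0.787 percentage points). RUNX against open peaks missed it there and with no ATAC-seq peak within 1 kb. Both strands were searched throughout. FOX sites were present in 6.44% of tiles, RUNX sites in 3.86%, the GGAA doublet in 1.90% and the SMAD palindrome in 0.105%.

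Of the 157 members at or under the q-value limit of 0.01, a core lay at 40.1% (32.8 to 47.9%), against 42.4% of their flanking windows. The 58 on tandem repeats had one at 13.8% (7.16 to 24.9%). In the 99 outside repeats a core lay at 55.6% (45.7 to 65.0%), the ETS/AP-1 word at 5.05% (2.18 to 11.3%), CAGGAAAT at 8.08% (4.15 to 15.1%) and the AP-1 site at 10.1% (5.58 to 17.6%). Open peaks with such a q-value numbered 204, and 92.6% (88.2 to 95.5%) of them held a core. The 127 members with the ETS/AP-1 word were led by ITGB1, the beta-1 integrin gene, with 8 reads and a fold of 6.13, by a site 16.7 kb from TGFBI, an extracellular matrix gene, with 5.92, and by one 76 bp from TNFRSF8, the CD30 gene, with 5.65. These 3 lay 4645, 1762 and 137 bp from the nearest ATAC-seq peak.

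ERG peaks of VCaP cells overlapped 10 closed-chromatin peaks, 0.144% (0.0782 to 0.265%), against 70 open peaks, 4.18% (3.32 to 5.25%; Fisher's exact test, adjusted p = 3.08e-39), and 7.08% (5.11 to 9.74%) of those near ERK2. The 10 lay 43.3 kb from APIP, in CUX1, NOL6, NAT16, ELOVL6, LRCH1, NOS2, GGNBP2 and SH2B3, and 8.15 kb from ALDH1A3. Their fold enrichment in RWPE1-ERG+mAKT cells was 2.94 to 5.92. The distance to the nearest ATAC-seq peak ran from 18 bp at SH2B3, an adaptor gene of blood cells, and 99 bp at GGNBP2 to 26.6 kb at LRCH1. The VCaP list held 6143 peaks over 1.8 Mb. Its overlap with genome tiles was not measured, so the 10 have no background share to be set against.

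H3K27me3 regions lay at closed-chromatin ERG peaks several times as often as at open ones. In RWPE1-Vector cells 1022 of the 6951 members overlapped a region, 14.7% (13.9 to 15.6%), against 3.89% (3.06 to 4.92%) of open peaks (odds ratio 4.26, Fisher's exact test, adjusted p = 5.27e-40). In RWPE1-ERG cells the shares were 7.52% (6.93 to 8.17%) and 0.717% (0.411 to 1.25%; odds ratio 11.3, Fisher's exact test, adjusted p = 6.54e-35), and in RWPE1-ERG S96E cells 10.5% (9.76 to 11.2%) and 1.26% (0.822 to 1.91%; odds ratio 9.19, adjusted p = 7.11e-45). Peaks near ERK2 stood at 2.92%, 0.833% and 1.25%. Genome tiles of 109 bp, the median width of a member, that overlapped no ATAC-seq peak stood at 10.5%, 5.82% and 8.90% in the 3 lines. The shares at closed-chromatin peaks were higher than those of the tiles in each line, and no test was made of that. Members were wider than the tiles on average (125.5 bp, at most 409 bp), which makes an overlap of 1 bp more likely. The tiles also took in blacklisted sequence, where no peak was kept. With tiles that overlapped an ATAC-seq peak taken in, the shares were lower, at 10.4%, 5.75% and 8.86%. Tiles in open chromatin thus held regions less often, with or without ERG. What part this had in the difference between closed-chromatin and open peaks was not tested. No H3K27me3 library of RWPE1-ERG+mAKT cells, the line of the ERG peaks, was used.

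**Figure D4:**
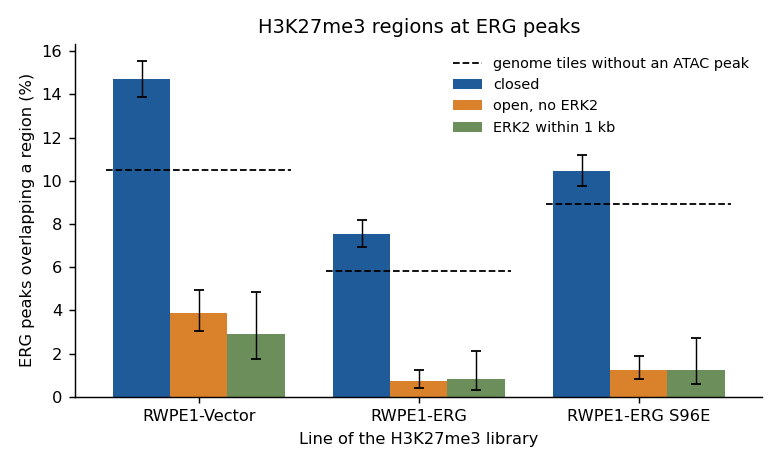
Share of ERG peaks that overlap an H3K27me3 region, in percent, for closed-chromatin peaks, open peaks and peaks with ERK2 within 1 kb, by the line of the H3K27me3 library, with 95% Wilson intervals. The dashed lines are genome tiles without an ATAC-seq peak (10.5%, 5.82% and 8.90%), which the closed-chromatin bars exceed and the other bars do not reach.

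The H3K27me3 regions at the members were mostly faint, as were those of the whole lists. The median fold enrichment at the members was 1.86 in RWPE1-Vector, 2.02 in RWPE1-ERG and 2.14 in S96E cells. Over all regions of the lists it was 1.84, 1.94 and 2.01. The q-value limit of 0.01 was met by 29, 39 and 3413 regions of the whole lists, and 0, 1 and 92 members lay in such regions. The share of members in a region of at least 2-fold was 4.07%, 3.99% and 7.25%, against 1.20%, 0.598% and 0.897% of open peaks. In S96E cells the share went with GC content, from 4.00% of the 2201 members under 35% GC to 20.6% of the 1186 at 50% or more, while it was 12.3% and 21.0% in RWPE1-Vector cells and 5.86% and 9.02% in RWPE1-ERG cells. Among open peaks at 50% GC or more, the share was 5.42% in RWPE1-Vector, 1.49% in RWPE1-ERG and 2.85% in S96E cells. What part GC content had in the shares was not tested.

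A region in all 3 lines lay at 158 members (2.27%) and at 0.538% of open peaks. Among the members a region lay in at least 1 line at 1611 (23.2%) and in none at 5340 (76.8%). RWPE1-Vector cells alone had a region at 634, S96E cells alone at 289 and RWPE1-ERG cells alone at 185. Of the 523 members marked in RWPE1-ERG cells 42.6% were marked in RWPE1-Vector cells, which is 21.8% of those marked there, and 52.2% in S96E cells, 37.6% of those marked there. The lists differ in length, and sharing between lines was not measured over the whole lists or the genome.

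The 158 members with a region in all 3 lines included the HBA2 site and the flank of FOXD3, a forkhead gene of the neural crest. At HBA2 the regions were 645 bp wide with a fold of 2.06 in RWPE1-Vector, 3077 bp and 3.05 in RWPE1-ERG, and 16396 bp and 6.61 in S96E cells. The FOXD3 member, 492 bp from the gene, had a fold of 4.94 for ERG, and its regions were 2786 bp and 2.17, 5357 bp and 3.28, and 12044 bp and 5.01. NTNG2, a netrin gene, had a member with a fold of 4.96, in a region 46185 bp wide in S96E cells. The others of the first 10 lay in or nearest to TMEM179, LOC101927229, NOV, FLJ36000, ZMIZ1-AS1, LINC01514 and CD82, and at 4 of the 10 (TMEM179, LOC101927229, NOV and ZMIZ1-AS1) the peak was a tandem repeat. The order of the lines seen at HBA2 and FOXD3 did not hold at all of them. In the same order of lines, the widths were 1226, 352 and 350 bp at NOV and 791, 278 and 6000 bp at ZMIZ1-AS1. At FLJ36000 the folds were 2.27, 1.97 and 1.59. The S96E library had the most ChIP reads (26454542), and the lines were not compared. Of the 152 genes nearest to the 158 members, 12.5% had an FPKM of at least 1 in RWPE1-ERG+mAKT cells and 13.2% in RWPE1-Vector cells, against 50.3% and 49.8% of the 3872 genes nearest to members with no region in any line.

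Distance to open chromatin is part of the rule and is given as a description. The median member lay 12.1 kb from the nearest ATAC-seq peak, 8.32% lay within 1 kb and 8.80% beyond 100 kb. The nearest were 2 bp away, beside S100A9 and in GRAP, with 4 reads each, and 3 bp away toward CTDP1. On the other side of the limit, the open peak nearest to PICALM overlapped an ATAC-seq peak by 1 bp and that in SIAH1 by 2 bp. The members nearest to an ERK2 peak were at 1073 and 1081 bp, nearest to GPR176 and MIR6762, with a fold of 3.53 each. Peaks without an ATAC-seq peak that the ERK2 limit left out numbered 88, and those just inside it were at 995 bp in GRHL2, 993 bp in YIF1B and 984 bp in GNG12.

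The ETS core share was 44.6% (40.6 to 48.7%) within 1 kb of an ATAC-seq peak and 37.4% (33.7 to 41.3%) beyond 100 kb, with 41.8 to 45.8% between. The ETS/AP-1 word was at 2.89% (2.16 to 3.85%) from 1 to 5 kb and at 1.14% (0.555 to 2.34%) beyond 100 kb. The median fold enrichment was 3.53 in each of the 6 distance classes. An H3K27me3 region of RWPE1-Vector cells lay at 10.2% (8.00 to 12.9%) of members within 1 kb, 16.1% (14.7 to 17.6%) from 10 to 50 kb and 11.8% (9.45 to 14.6%) beyond 100 kb.

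Members were spread over all chromosomes at 2.45 for each Mb of called sequence, and 42.02% had another member within 100 kb. For their length, chromosome X had the fewest, 0.622 for each Mb (94 members), then chromosome 22 with 0.974 (34 members) and chromosome 18 with 1.61, and chromosome 15 the most with 3.15. Open peaks stood at 0.590 for each Mb of the genome and at 0.0662 on chromosome X. A gene start lay within 1 kb of 4.16% (3.71 to 4.65%) of closed-chromatin and 12.8% (11.3 to 14.5%) of open peaks (Fisher's exact test, adjusted p = 2.15e-34). Introns held 56.8% of members, exons 7.42% and the space between genes 35.8%, beside 53.3%, 15.2% and 31.5% of open peaks. An ERK2 peak of RWPE1-Vector cells, which the rule did not use, lay within 1 kb of 4.60% of members and 18.0% of open peaks. That list held 41276 peaks, against 5721 in the RWPE1-ERG list of the rule. Its share over genome tiles was not measured.

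The nearest gene of the RNA-seq table was taken for each member, which gave 4796 genes, of which 3466 had 1 member and 88 had 5 or more. Members inside a gene numbered 3713 (53.4%), 9.42% lay within 10 kb of it and 16.5% over 100 kb away, against 7.83% of open peaks over 100 kb away. Genes nearest to a member were long, with a median of 71.8 kb against 23.1 kb for all genes. Of the 521 genes of at least 500 kb 55.5% held a member, and of those under 10 kb 0.869%, while members for each Mb of gene were 1.37 and 2.34.

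The genes nearest to the most members had little RNA in most cases. LRRC4C and NRG3, genes of neuronal adhesion and signalling, had 10 each, 6 of them inside genes of 1346 and 1112 kb, and their FPKM was at or below 0.0226 in all lines. CNTNAP5 had 9, and ANKS1B, CNTN5, LINC00911, LINC01467 and LOC101928052 had 8 each. CDH11, a cadherin gene, came last with 7, as many as CDH18, all of them outside it, and an FPKM of 3.51 in RWPE1-Vector, 1.44 in RWPE1-ERG, 0.757 in RWPE1+mAKT cells and 0.401 where both genes were introduced. The best fold enrichment at any of these genes was 4.94.

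Of the gene lists, that named for neuronal adhesion and synapse genes had the most members. It also holds long genes of other kinds, WWOX, PARK2 and DMD among them. In this list 29 of 40 genes (72.5%) were nearest to a member, with 121 members, against 18.6% of all genes. The median length of the 40 was 1337 kb, and of all genes of at least 500 kb 55.5% held a member. What part gene length had in the share of this list was not tested. Of the other lists, the EMT and migration genes had 9 of 20, the PI3K and AKT pathway 10 of 24, the Polycomb-target developmental factors 11 of 32, the endothelial genes 6 of 20, the cadherins and tight junctions 3 of 10, the basal genes 4 of 14 and the luminal prostate genes 2 of 15. The 10 of the pathway list count PDK1, which is a pyruvate dehydrogenase kinase gene and not PDPK1.

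Of the 13 members nearest to developmental factors, 10 (76.9%) overlapped an H3K27me3 region in at least 1 line, beside 23.2% of all members. These lay at PAX7 (2 members inside it), FOXD3, IRX3, SIX2, PAX3, NKX2-2, NEUROG2, OLIG3 and LHX2, and those of TBX15 and TBX20, and 1 of the 2 of NKX2-2, had none. Members at NEUROG2, a neurogenic factor gene, and FOXD3 were 716 and 492 bp away. Of the endothelial list, ERG had 4, VWF, the von Willebrand factor gene, and EMCN, the endomucin gene, 3 each, PECAM1 2, and SOX17, 348 bp from its member, and CDH5, 262 kb from it, 1 each. The FPKM of these genes other than ERG was at or below 0.210 in all lines. In the luminal list KRT8, a keratin gene, held 1 member. In the basal list TP63 had 4, DST 3, ITGA6 3 and LAMA3 2, and ITGA6, the alpha-6 integrin gene, had the strongest with 8 reads and a fold of 6.23. In the pathway list INPP4B, a phosphatase gene that opposes AKT, had 3, and PIK3R1 had 2.

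RNA levels at these genes were compared as the authors' pooled FPKM, which carry no error and allow no test. Of the 4792 genes nearest to a member with a usable value, 46.3% had an FPKM of at least 1 in RWPE1-ERG+mAKT cells, as did 46.4% of all 25828 genes and 60.0% of the 1419 genes nearest to an open peak. Ratios of at least 2-fold on the log2(FPKM + 1) scale, which understates changes of low genes, were counted among genes that reached an FPKM of 1 in 1 line or more. For RWPE1-ERG+mAKT over RWPE1-ERG cells, 30 of 2321 genes nearest to a member (1.29%) were higher, beside 2.02% of all 12526 genes, and 48 (2.07%) were lower, beside 2.47%. For RWPE1-ERG+mAKT over RWPE1+mAKT cells, 21 (0.905%) were higher, beside 2.03%, and 14 (0.603%) lower, beside 0.854%. The median log2 ratio was -0.03 in the first comparison, beside -0.04 for all genes, and -0.07 in the second, as it was for all genes. Genes nearest to open peaks had 2.22% higher and 3.11% lower in the first comparison and 1.00% and 1.11% in the second. Both comparisons use the same RWPE1-ERG+mAKT values. Over RWPE1-ERG cells, and counting list genes with or without a member, 5 of the 14 basal genes were at least 2-fold higher and 3 lower. In this comparison 6 of the 16 EMT and migration genes that reached an FPKM of 1 were lower. Of the 24 genes on the PI3K and AKT list, 2 were higher and 1 lower.

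**Figure D5:**
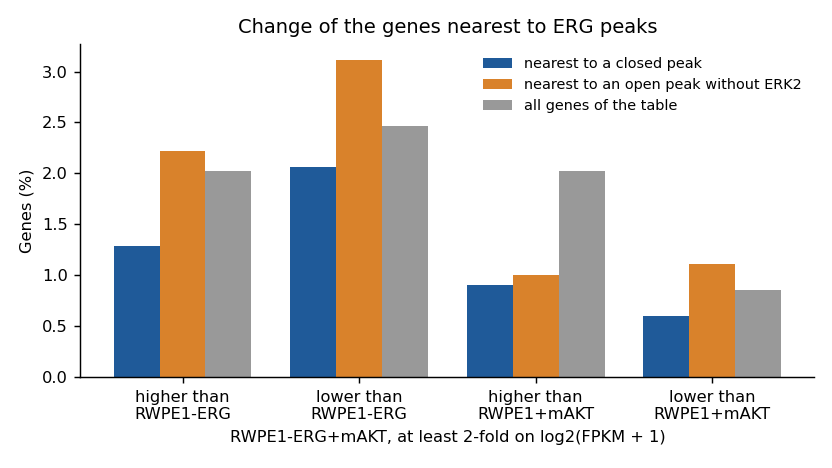
Share of genes, in percent, at least 2-fold higher or lower in RWPE1-ERG+mAKT cells than in RWPE1-ERG or RWPE1+mAKT cells on log2(FPKM + 1), for genes nearest to a closed-chromatin peak (2321), nearest to an open peak (899) and all genes (12526) that reached an FPKM of 1. The closed-chromatin bars (1.29%, 2.07%, 0.905% and 0.603%) lie below those of all genes (2.02%, 2.47%, 2.03% and 0.854%) in each pair. These differences were not tested, and the last did not hold when genes were taken by their nearest start.

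Genes with a member inside or within 10 kb were ranked by FPKM ratio where the lower of the compared values was above 0.5 and the higher at least 5. Over RWPE1+mAKT cells this leaves out, among others, ERG itself (0.435 to 328) and IL24 (0.0996 to 6.97), whose FPKM ratios were larger than any named for that comparison. Among the genes ranked, S100A9, which encodes a subunit of calprotectin, had the highest ratio in both comparisons. Its FPKM was 33.0 in RWPE1-Vector, 38.4 in RWPE1-ERG, 51.6 in RWPE1+mAKT and 691 in RWPE1-ERG+mAKT cells. Its member, 4.67 kb away with 4 reads, lay 2 bp from the nearest ATAC-seq peak. S100A9 was also the nearest gene of 2 ERG peaks outside closed chromatin. RAB26, a vesicle GTPase gene, had 1.68 in RWPE1-ERG and 17.6 in RWPE1-ERG+mAKT cells, with a member inside it of 5 reads.

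GRHL1, an epidermal transcription factor gene, had 1.06 in RWPE1-ERG and 5.42 in RWPE1-ERG+mAKT cells. SLPI, a secreted protease inhibitor gene, had 48.6 and 165, with a member 1.56 kb away of 8 reads and a fold of 5.12. IL24, a cytokine gene, had 2.21 and 6.97, with a member 415 bp away of 9 reads and a fold of 5.74. RAB26, GRHL1, SLPI and IL24 were nearest to no ERG peak outside closed chromatin.

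The lowest ratios over RWPE1-ERG cells included those of TGM2, ADAM19, CDH4 and NETO1. TGM2, the tissue transglutaminase gene, went from 53.5 in RWPE1-ERG to 4.18 in RWPE1-ERG+mAKT cells and had 5 members. ADAM19, a metalloproteinase gene, went from 6.99 to 1.15, and CDH4, the R-cadherin gene with 5 members, from 8.79 to 1.84. NETO1 went from 5.85 to 1.48. In RWPE1-Vector cells these 4 genes stood at 8.73, 1.38, 4.66 and 2.65. TGM2, ADAM19 and CDH4 were each nearest to 1 ERG peak outside closed chromatin too.

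Over RWPE1+mAKT cells, the next highest ratios after S100A9 among the genes ranked were those of SCARNA10, a small Cajal body RNA (4.69 to 18.1), OAS1, an interferon-induced gene (2.05 to 6.79), SMOC1, a matrix gene (3.67 to 9.40), and MGLL, the monoacylglycerol lipase gene (4.71 to 11.5). The lowest were those of TOX2 (5.02 to 1.97), KCNMA1, a potassium channel gene (46.4 to 18.4), LINC00707 (8.28 to 3.36), RPS6KA2, a ribosomal S6 kinase gene (7.70 to 3.36), and SLCO4A1, a transporter gene (28.6 to 12.6). Members at these 9 genes had folds of 2.94 to 4.87 and 4 to 6 reads.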

How the data were processed

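ChIP samples were pooled from 3 independent experiments by the authors, aligned to hg19 with Bowtie2, cleared of blacklisted regions and duplicates, and called against input with MACS2, with a p-value limit of 0.001 for ERG. ATAC-seq broad peaks had no input. The deposited lists give the pileup signal, the ratio over input as fold enrichment, and −log10 p-value and q-value. The authors deposited FPKM from Cuffdiff, pooled over the libraries of each line. The table's own fold changes and p-values were not used, nor were 7 genes with a failed estimate. The 2 lists under VCaP labels whose headers name another sample were left out.

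Overlap means at least 1 bp. Shares have 95% Wilson intervals, and classes were compared with two-sided Fisher's exact tests. Genes came from GENCODE 44 on GRCh37, placed for 21887 table genes by symbol, 1338 by older symbol and 3030 by table locus. Ties went to the shorter gene. The peaks named are the first 10 by fold, by p-value outside repeats, and by fold among those with H3K27me3 in all 3 lines, those at the limits of the rule and, chosen after their values were seen, those at VCaP peaks, ETS/AP-1 words and coding exons. The genes named are the 10 with most members, list genes, and the 5 highest and 5 lowest FPKM ratios in each comparison (FPKM at least 5 in the higher line, above 0.5 in the lower). Some genes and 1 sequence that these rules pick are not reported here. Members and lists were chosen with earlier results of these data known. The code was tested on simulated data and used Python 3.11.15, scipy 1.17.1 and pysam 0.24.0.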

Additional observations from a re-analysis of the deposited data

How the results depend on the processing

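Of 132 alternatives to 33 results, 114 kept their direction and their side of the threshold or stayed within 1.5 times a count. With ERG peaks of a q-value of at most 0.01, 157 closed-chromatin peaks were left. The excess of H3K27me3 in closed over open chromatin kept its direction and passed the test in 6 alternatives for RWPE1-Vector and S96E cells and 5 for RWPE1-ERG cells, whose list, the shortest, is not changed by equal numbers of regions, at 2.88 to 13.6 percentage points in RWPE1-Vector, 3.39 to 7.30 in RWPE1-ERG and 6.35 to 10.0 in S96E cells. Comparisons with flanking windows changed most among the 2000 ERG peaks of lowest p-value, which leave fewer members. There the differences in percentage points were 0.962 for the ETS/AP-1 word, 1.40 for AP-1, 0.437 for the FOX and ETS word and 1.09 for RUNX, all past the threshold before and not there, 1.09 for the GGAA doublet, which passed, and -0.787 for FOX and -0.0874 for SMAD, which turned direction. RUNX against open peaks did not pass with these peaks (-1.30) or with no ATAC-seq peak within 1 kb (-0.872). Without tandem repeats, runs of 4 GGAA were lower in closed chromatin than at open peaks (-0.165) and in flanking windows (-0.0946), both past the threshold. These runs were at only 2 closed-chromatin peaks, 1 of them a tandem repeat, and 3 open peaks before repeats were left out. The causes of these changes were not tested. With a pseudocount of 0.1, the genes past 2-fold were 58 higher and 78 lower over RWPE1-ERG and 44 higher over RWPE1+mAKT cells. By the nearest gene start, 33 of 2215 genes were higher and 22 lower over RWPE1+mAKT cells. The lower share was then above the 0.854% of all genes. Without the FPKM filter 4792 genes were counted. No paired analysis was possible because the RNA-seq table holds values pooled over the 3 numbered libraries of each line and every other list stands for 1 library, which also allows no leaving out of a replicate. Reads at a typical member, 4, limit what a single peak shows.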
